A study of Mus musculus with 4 samples.

Results

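Monocytes were a small population of the subdural meninges of the mouse cerebellum, with 132 members among the 38722 cell barcodes kept in 4 droplet single-cell RNA libraries. Monocytes are circulating myeloid cells that are made in the bone marrow and, in the newborn, in the liver. The classical kind carries Ly6C and the chemokine receptor CCR2, enters tissue and can become a macrophage or a dendritic cell there. The patrolling kind has lost Ly6C, depends on the nuclear receptor NR4A1 and crawls along the inside of vessels. At the borders of the brain, where resident macrophages were mostly laid down before birth, monocytes are the main source of macrophages that arrive later.

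The members were chosen by counts of marker genes. Barcodes entered with 500 or more genes, 1000 or more UMIs (unique molecular identifiers, 1 per captured transcript) and no more than 10% of UMIs from mitochondrial genes. A member had at least 2 of Ly6c2, Ccr2, Plac8 and Chil3 detected, and Lyz2 detected. It had at most 9 UMIs of the MHC class II genes H2-Aa, H2-Ab1 and H2-Eb1 together and at most 3 UMIs of the border macrophage genes Mrc1 and Pf4. Cells with Cd79a or Cd3e, the markers of B and T cells, and cells with 20 or more UMIs of the neutrophil genes S100a8 and S100a9 were dropped. The members numbered 32 and 61 in the NdpKO libraries 1 and 2, against 12 and 27 in the NdpWT libraries 1 and 2. Since measured values chose the cells, the genes of the rule and the differences of members from other cells are described below without a test. The fits for genotype did not leave the rule's genes out of their counts.

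The NdpKO mice lacked Ndp and carried the Neurod2-SmoA1 transgene on 1 allele, and the NdpWT mice carried the transgene and were wild type for Ndp. Ndp encodes norrin, a secreted ligand that signals through Fzd4 in blood vessels of the retina and brain. SmoA1 is an activated form of Smoothened under the Neurod2 promoter, which is active in neurons, and gives tumours of the granule neuron lineage, so every library came from a cerebellum prone to them. Each library pooled 5 cerebella of pups aged 6 to 8 days by the sample fields and 7 to 9 days by the protocol, without the dura, digested with Dispase II and cleared on 22% Percoll.

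The libraries held 114363848 to 125981161 UMIs in 12904 to 19134 barcodes. In NdpKO 1, 44.1% of the barcodes were kept, against 64.8 to 67.0% in the other libraries, and 21.8% were over the mitochondrial limit, against 7.58 to 10.4%. Ndp had 40 and 52 UMIs over all kept barcodes of the NdpKO libraries (0.398 and 0.472 CPM, UMIs per 1000000 UMIs of the summed cells), against 210 and 148 UMIs in the NdpWT libraries (2.07 and 1.40 CPM). The matrices do not show which part of Ndp was deleted, so residual UMIs neither check nor contradict the genotype. Ndp had 0 UMIs in the members of every library. Any pair of libraries shared 15 to 48 kept barcode sequences.

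Detection of the rule's genes describes the members and does not check the label, since these genes chose the cells. Plac8, a small protein of myeloid cells, was detected in 100, 98.4, 100 and 96.3% of the members of NdpKO 1, NdpKO 2, NdpWT 1 and NdpWT 2. Ccr2, the receptor for the chemokine CCL2, was detected in 93.8, 100, 100 and 88.9%. Ly6c2, the main gene of the Ly6C antigen, was detected in 40.6, 39.3, 33.3 and 63.0%, so that most members of 3 libraries qualified without it. Chil3 was seen in 1 cell, as 1 UMI. The commonest combination was Ccr2 with Plac8 alone, in 74 members (56.1%), followed by Ly6c2, Ccr2 and Plac8 in 50 members. Ptprc, the leukocyte antigen CD45, was not part of the rule and was found in all 132 members.

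Haptoglobin (Hp), a classical monocyte gene outside the rule, was detected in 65.6, 63.9, 66.7 and 63.0% of members in the same order, and in 0.042 to 0.26% of the fibroblasts, which should lack it. The fibroblasts were deeper, with median totals of 29852.5, 16970, 18439.5 and 13031 UMIs, against 11712.5, 8982, 6623 and 6238 UMIs in the members. Of the fibroblasts, 0 of 1460, 2133, 1540 and 2384 met the requirement of 2 of the 4 genes plus Lyz2. Plac8 and Lyz2 on their own were found in 7.2 to 11.9% and 7.5 to 19.6% of fibroblasts.

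Few members lay near the upper limits of the rule, but 81 of the 132 had no more than the required 2 of 4 genes. With MHC class II, 0 members had 8 or 9 UMIs and 0 otherwise qualifying cells had 10 or 11. With Mrc1 and Pf4, 3, 7, 0 and 1 members had 2 or 3 UMIs, and 0, 1, 1 and 0 cells just outside had 4 or 5. With S100a8 and S100a9, 1, 0, 2 and 0 members had 15 to 19 UMIs, and 1, 0, 0 and 0 cells outside had 20 to 25. Of the 4 genes, 21, 38, 8 and 14 members had exactly 2, and 43, 40, 67 and 61 cells had 1 and were left out.

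Adgre4 and Apoc2, chosen after their values were seen, had their highest levels in the members, and Treml4 did so in part of the libraries. Adgre4, an adhesion receptor of monocytes, had 254 and 88.0 CPM in NdpKO members and 123 and 175 CPM in NdpWT members, and no more than 28.8 CPM in border macrophages, microglia, neutrophils or dendritic cells. Treml4, a receptor of patrolling monocytes, had 173 and 28.4 CPM in NdpKO members and 66.3 and 149 CPM in NdpWT members, against 0 to 76.7 CPM in the 4 other types. Apoc2, an apolipoprotein, had 267 and 112 CPM in NdpKO members and 104 and 143 CPM in NdpWT members, against 0 to 36.9 CPM elsewhere. Adgre4 and Apoc2 of every library were above all other types, while Treml4 of NdpKO 2 and NdpWT 1 lay below the highest neutrophil value.

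The shared genes separated the members from one neighbour at a time. Itgal, the integrin chain of LFA-1, had 404 and 122 CPM in NdpKO members and 322 and 382 CPM in NdpWT members, above the 9.19 to 19.2 CPM of border macrophages, while neutrophils had 82.0 to 209 CPM. Hp had 176 to 441 CPM in members, 1024 to 1465 CPM in neutrophils and at most 4.65 CPM in dendritic cells. S100a4, a calcium-binding protein of motile cells, had 758 to 1428 CPM in members and 693 to 1483 CPM in dendritic cells, against 4.91 to 16.5 CPM in border macrophages. Mrc1, the mannose receptor that the rule capped, had 3485 to 4143 CPM in border macrophages. The 15 patrolling monocyte genes summed to 4790 and 2319 CPM in NdpKO members and 4244 and 3849 CPM in NdpWT members, against 1066 to 1514 CPM in border macrophages, 880 to 1515 CPM in dendritic cells and 2266 to 3270 CPM in neutrophils, whose range held the sum of NdpKO 2.

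**Figure D1:**
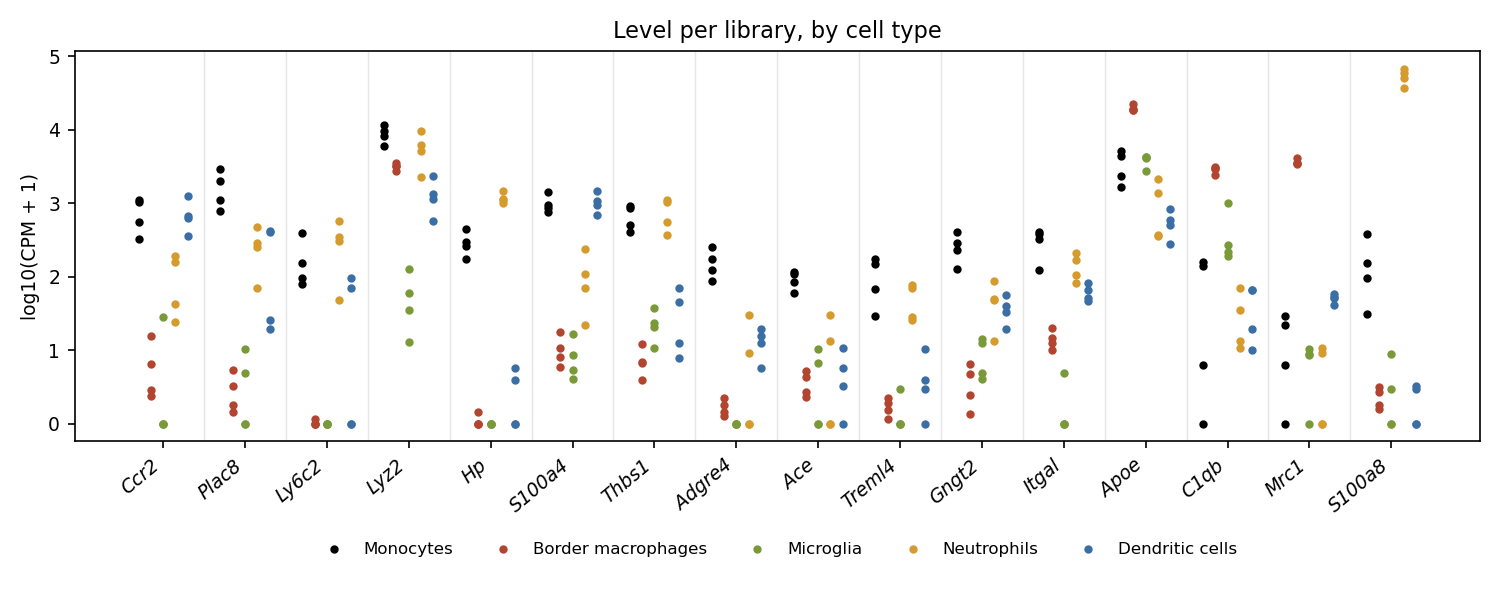
Level of 16 genes in the 4 libraries, by cell type, as log10(CPM + 1) of the summed UMIs; each point is 1 library. Adgre4, Ace and Gngt2 are highest in the monocytes, Hp and S100a8 in the neutrophils, and Mrc1 and C1qb in the border macrophages.

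Monocytes made up a larger share of the NdpKO libraries than of the NdpWT libraries. The share was 0.562% (exact binomial 95% interval 0.385 to 0.792%) in NdpKO 1 and 0.560% (0.429 to 0.719%) in NdpKO 2, against 0.129% (0.0665 to 0.225%) in NdpWT 1 and 0.211% (0.139 to 0.306%) in NdpWT 2. The intervals cover counting error only. The groups did not overlap, at 0.561 ± 0.001% in NdpKO and 0.170 ± 0.058% in NdpWT (mean ± SD, n = 2 each), a log2 difference of 1.77, or 3.41-fold. The two-sided exact permutation test over libraries gave p = 0.333, which is the smallest that 2 libraries against 2 allow.

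The difference kept its direction with every denominator tried. Monocytes were 4.75 and 7.18% of the Ptprc-positive barcodes in NdpKO, against 1.05 and 2.57% in NdpWT, and 4.92 and 9.17% of the cells of the 5 myeloid rules, against 1.01 and 2.75%. Border macrophages, the resident macrophages of the meninges, were 10.1 and 4.96% of the NdpKO libraries and 12.2 and 6.87% of the NdpWT libraries, and there the groups overlapped. Dendritic cells were 0.316 and 0.358% in NdpKO and 0.150 and 0.250% in NdpWT, and like the monocytes they did not overlap (log2 difference 0.797, exact permutation p = 0.333). Neutrophils were 0.228 and 0.0918% in NdpKO and 0.0858 and 0.211% in NdpWT, and overlapped. The NdpKO members were deeper, and with every cell reduced to 1000 UMIs before the rule was applied the log2 difference was still 1.77 (exact permutation p = 0.333).

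**Figure D2:**
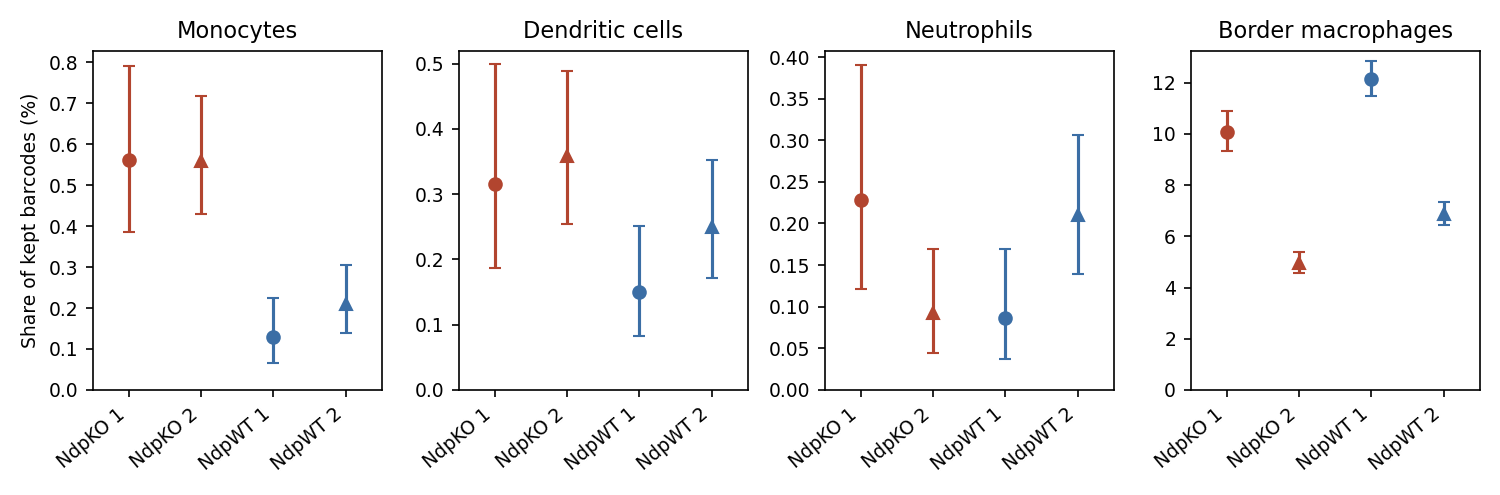
Share of kept barcodes (%) in each library for monocytes, dendritic cells, neutrophils and border macrophages, with exact binomial 95% intervals as bars; red marks NdpKO and blue NdpWT. Both NdpKO libraries are near 0.56% monocytes, above both NdpWT libraries at 0.129 and 0.211%. Dendritic cells also do not overlap, while neutrophils and border macrophages do.

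Some member barcodes also carried RNA of other cell types, with the most such barcodes in NdpKO 2. Fibroblast markers (10 or more UMIs of Col1a1, Col1a2, Col3a1 and Dcn) were found in 2 and 9 NdpKO members and in 0 and 0 NdpWT members. Markers of granule neurons, endothelium or natural killer cells brought the count of such barcodes to 4 and 18 in NdpKO and 2 and 3 in NdpWT. All results below are given for the 132 members and, where it matters, for the 105 that remain without these 27 barcodes: 28 and 43 in NdpKO, 10 and 24 in NdpWT. The log2 difference of the share without them was 1.64. The endothelial list summed to 85.4 and 521 CPM in NdpKO and 2965 and 112 CPM in NdpWT. In NdpWT 1 a single member held 233 UMIs of Cldn5, Kdr, Cdh5 and Egfl7. Of the other myeloid lists, 3 of 12 neutrophil genes (Retnlg, Ltf and Ngp), 1 of 10 microglia genes (Siglech) and 4 of 12 dendritic cell genes (Xcr1, Clec9a, Ccr7 and Ccl22) were at 0 in all members, and the rest were detected. The neutrophil list summed to 231 and 175 CPM in NdpKO and 199 and 308 CPM in NdpWT, with a UMI of Mcemp1 in 78 members and of Csf3r in 56. The microglia list summed to 609 and 1162 CPM in NdpKO and 2093 and 276 CPM in NdpWT, and Sparc, with 1189 UMIs in 64 members, was its most abundant gene. Without the 27 barcodes this list summed to 215 and 281 CPM in NdpKO and 160 and 329 CPM in NdpWT. In fibroblasts it summed to 2458 to 3894 CPM. The microglial genes Tmem119, Gpr34 and P2ry12 were found in 16, 16 and 12 members. The dendritic cell list summed to 229 and 409 CPM in NdpKO and 360 and 239 CPM in NdpWT, with Cd74, its most abundant gene, in 72 members and Batf3 in 41. The part of these lists in the results was not tested. Haemoglobin RNA also varied by library, with Hbb-bs at 472 and 8150 CPM in NdpKO and 578 and 19383 CPM in NdpWT. The median member had 10 and 7 UMIs of Hba-a1, Hba-a2, Hbb-bs and Hbb-bt in NdpKO and 7.5 and 10 in NdpWT. The highest single member had 29 and 6735 in NdpKO and 29 and 6165 in NdpWT.

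In NdpKO members 14 genes rose and 0 fell among 5207 tested, by edgeR's quasi-likelihood test on summed counts with a Benjamini-Hochberg adjusted p under 0.05. That is 0.269% of the genes tested, and 185 genes were higher and 66 lower at an unadjusted p under 0.05. DESeq2 called 10 genes, 7 of them among the 14. Both NdpKO libraries were above both NdpWT libraries for 17.6% of all genes tested and below them for 16.0%. The risen genes fell into a set of connective tissue genes and 1 complement gene.

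The connective tissue genes were those of the fibroblasts. Col1a1, a chain of type I collagen, had 427 and 375 CPM in NdpKO members, against 28.4 and 10.6 CPM in NdpWT members (log2 change 4.51 ± 0.47 SE, adjusted p = 0.000342 by edgeR). Dcn, the matrix proteoglycan decorin, had 758 and 1146 CPM in NdpKO and 37.9 and 111 CPM in NdpWT (3.58 ± 0.46, adjusted p = 0.00817 by edgeR). Col1a2, Mgp, Fstl1, Igf2, Ccn3, Akap12, Cdkn1c, Ecrg4, Crabp2 and Foxd1 rose likewise, with log2 changes of 2.08 to 4.77. Fibroblasts had a higher level than monocytes in 13 of the 14 genes, against 41.9% of all genes tested.

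These 13 calls depended on the barcodes with markers of other cell types. Col1a1, Col1a2 and Dcn were among the genes that chose the barcodes to drop. The loss of these genes and the fall of the fibroblast list were thus partly set by that step. Without the 27 barcodes the fibroblast list summed to 290 and 331 CPM in NdpKO and 284 and 486 CPM in NdpWT, against 2563 and 3995 CPM in NdpKO and 265 and 430 CPM in NdpWT with them. Then 1 gene rose and 0 fell among 3558 tested (0.0281%), with 99 higher and 77 lower at an unadjusted p under 0.05, and Dcn was at a log2 change of -0.48. Leaving out single libraries of all members gave 54 calls without NdpKO 1, 43 without NdpKO 2, 74 without NdpWT 1 and 94 without NdpWT 2. Crabp2 and Ecrg4 lost their calls without NdpKO 1, at log2 changes of 4.34 and 3.51, and Foxd1 without NdpKO 2, at 4.56.

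**Figure D3:**
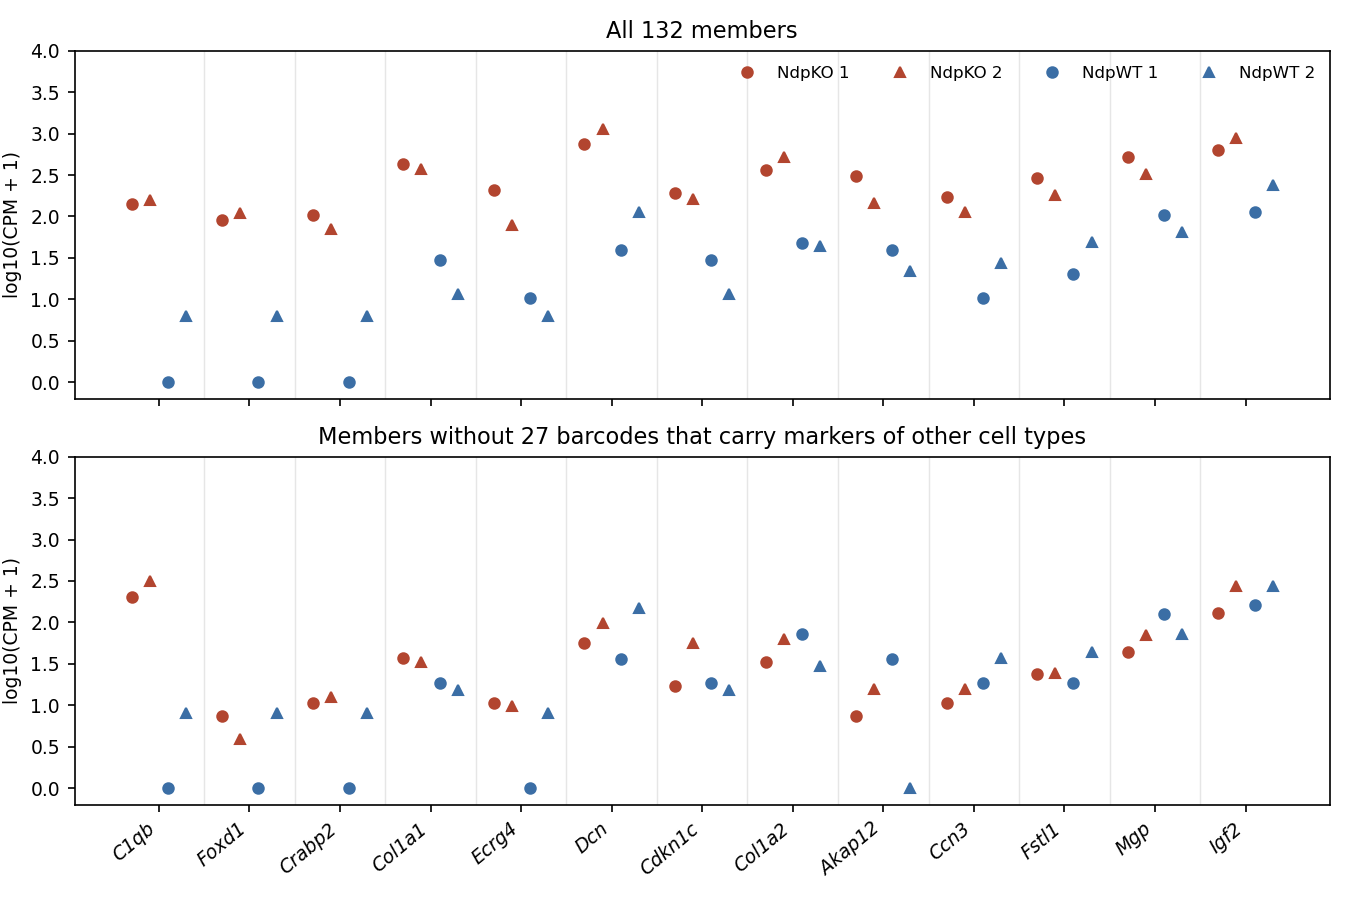
Of the 14 genes that rose in NdpKO monocytes, 13 are plotted as log10(CPM + 1) per library, for all 132 members (top) and for the 105 without markers of other cell types (bottom); red marks NdpKO and blue NdpWT. In the top panel both NdpKO libraries are above both NdpWT libraries in every gene plotted, and in the bottom panel C1qb keeps a wide gap while Dcn, Mgp and Igf2 overlap.

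C1qb, the B chain of the complement component C1q and a gene of resident macrophages, was the 1 gene that rose with and without those barcodes. It lies on chromosome 4 (GRCm38, 136880129 to 136886187, minus strand), beside C1qa and C1qc. C1qb had 139 and 158 CPM in NdpKO members, against 0 and 5.31 CPM in NdpWT members, from 65, 117, 0 and 1 UMIs. In NdpWT 1, 3 UMIs would have been 28.4 CPM. The fitted log2 change was 5.34 ± 0.73 SE (adjusted p = 0.00291 by edgeR, 0.0817 by DESeq2). The ratio of pooled counts was 44.3, with a counting interval of 7.85 to 1760.

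Without the 27 barcodes C1qb had 202 and 319 CPM in NdpKO and 0 and 7.14 CPM in NdpWT, a log2 change of 5.58 (adjusted p = 0.00133 by edgeR). Its call also held without each library in turn, with log2 changes of 4.72 to 9.03. The call was lost with the replicate number as a block (adjusted p = 0.0844 by edgeR), and with at least 3 of the 4 rule genes C1qb was left out by the filter on low counts, where 0 genes were called. Of the 12 border macrophage markers all were detected, 4 were tested, all 4 were higher and 1, C1qb itself, rose. C1qb, with 65 and 117 UMIs in NdpKO and 0 and 1 in NdpWT, passed the filter on low counts only through NdpKO. For such a gene being higher was set by the filter, so this count is no separate support. The list summed to 4871 and 5709 CPM in NdpKO members and 1904 and 2506 CPM in NdpWT members, against 33344 to 37780 CPM in border macrophages themselves. Apoe made up most of these sums, while Cd163, Folr2, Lyve1 and Cbr2 had 1, 4, 5 and 5 UMIs over all members. The part of macrophage RNA in this result was not tested.

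Few cells held most of the C1qb UMIs. The gene had a UMI in 6 and 12 NdpKO members (18.8 and 19.7%) and in 0 and 1 NdpWT members (0 and 3.7%), while fibroblasts, at greater depth, had one in 9.52 and 6.56% of NdpKO and 17.3 and 10.6% of NdpWT cells. With each cell reduced to 1000 UMIs the shares of members were 12.5 and 6.56% in NdpKO and 0 and 0% in NdpWT. The NdpWT shares were thus below that of fibroblasts and are read as background. Of the 183 C1qb UMIs, 176 were in 13 cells with at least 3 each, 5 in NdpKO 1 and 8 in NdpKO 2.

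Those 13 cells carried genes of the rule and macrophage genes together. Ccr2, Plac8, Lyz2 and Apoe were detected in all 13, with 272, 167, 1551 and 1875 UMIs, Maf, a transcription factor of macrophages, in 12 and C3ar1, the receptor for the complement fragment C3a, in 11. Ly6c2 was detected in 3 and Col1a1 in 3. The rule required Lyz2, and all 74 members without Ly6c2 entered through Ccr2 and Plac8. Detection of these genes was thus largely set by the rule. Of all 132 members, 128 had Apoe and 76 had Maf, so that neither gene is particular to the 13 cells. Mrc1 and Pf4 had 18 and 1 UMIs over the 13 cells, while a border macrophage had a median of 182 and 96 UMIs of the pair in NdpKO and 104 and 74 in NdpWT; the rule limits this pair.

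The other C1q chains were less abundant than C1qb in NdpKO members. C1qa had 0.154 and 0.718 UMIs per C1qb UMI in NdpKO members, against 1.07 and 1.10 in NdpKO border macrophages. C1qc had 0.369 and 0.342 UMIs per C1qb UMI in NdpKO members, against 0.989 and 0.848 in NdpKO border macrophages. In NdpWT 2, with 1 C1qb UMI, the ratios were 3.00 and 4.00 in members, against 1.14 and 0.810 in border macrophages. C1qb, the divisor, had been picked for its high count in NdpKO members, which lowers such ratios there, so they are given as a description.

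**Figure D4:**
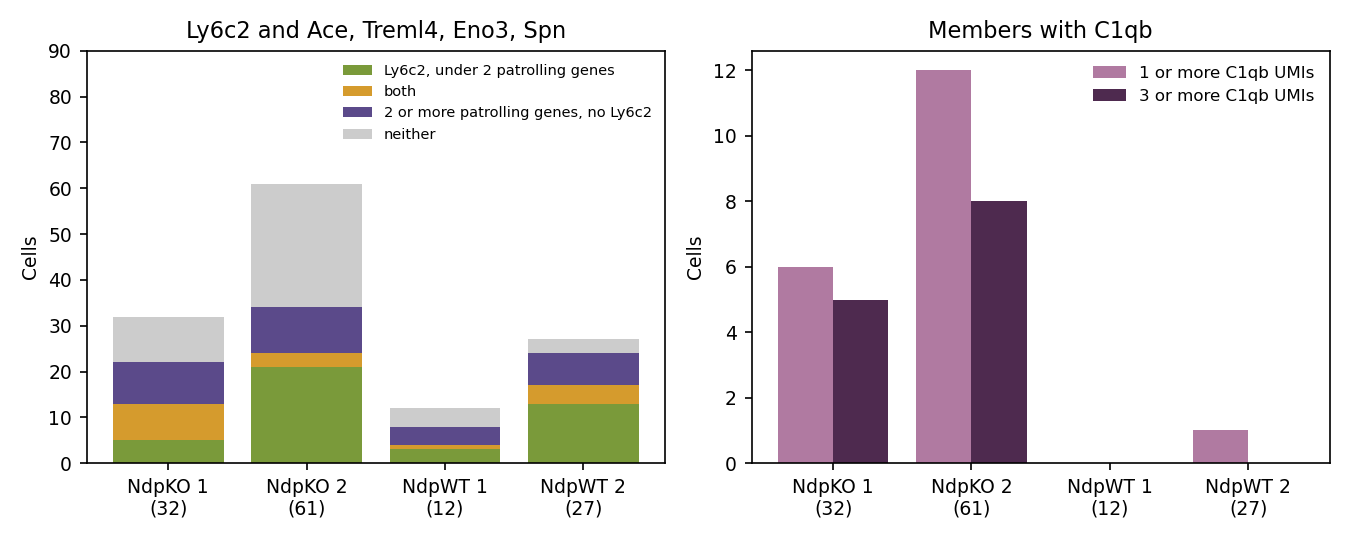
Left, number of members per library with a Ly6c2 UMI, with 2 or more of the patrolling genes Ace, Treml4, Eno3 and Spn, with both and with neither; right, number of members with at least 1 and at least 3 C1qb UMIs (totals of members in brackets). All 13 cells with 3 or more C1qb UMIs are in the 2 NdpKO libraries.

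Other macrophage genes were higher in NdpKO members without passing the test. Apoe, the lipid carrier of macrophages, had 4421 and 5114 CPM in NdpKO and 1677 and 2373 CPM in NdpWT (log2 change 1.24 ± 0.30 SE, adjusted p = 0.134 by edgeR). Maf had 190 and 219 CPM in NdpKO and 94.7 and 58.4 CPM in NdpWT (1.49, adjusted p = 0.240 by edgeR). C3ar1 had 61.9 and 86.6 CPM in NdpKO and 0 and 10.6 CPM in NdpWT, from 93 UMIs against 2 (adjusted p = 0.128 by edgeR). Maf is from the border macrophage list and C3ar1 from no list. The groups did not overlap in these 3 genes, nor in 17.6% of all genes tested in that direction. Of the 18 genes of the maturation list 10 were tested, 1 rose, 9 were higher and 4 were higher without overlap, with a median log2 change of 0.50 against 0.00 over all genes tested. The 1 that rose was C1qb, counted again here, which entered the test only through its NdpKO counts.

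No gene that defines monocytes was called. On simulated counts the test called 4.49% of 2-fold and 52.2% of 4-fold genotype changes over 5339 genes, so that changes of that size could be missed. Of 26 classical genes outside the rule 25 were tested, 0 rose or fell, and 6 were higher in NdpKO, with a median log2 change of -0.42. Both NdpKO libraries were below both NdpWT libraries in 8 of the 25, against 16.0% of all genes, and above them in 4. Without the 27 barcodes 11 of 26 were higher, with a median of -0.18. Ifitm3, an antiviral membrane protein, had 1608 and 1426 CPM in NdpKO and 1374 and 2373 CPM in NdpWT, and S100a6 had 1081 and 1020.3 CPM in NdpKO and 1497 and 1731 CPM in NdpWT. Of 15 patrolling genes 14 were tested and 0 were called, with 5 higher and a median of -0.27. Nr4a1 had 869 and 299 CPM in NdpKO and 559 and 467 CPM in NdpWT, and overlapped.

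Among the genes of the rule, for which no test is given since they chose the cells, Ccr2 and Ly6c2 leaned in opposite directions. Ccr2 had 1040 and 1097 CPM in NdpKO members and 322 and 552 CPM in NdpWT members. Ly6c2 had 96.1 and 78.5 CPM in NdpKO members and 152 and 393 CPM in NdpWT members. Both genes separated the groups, while Plac8 (2044 and 790 CPM in NdpKO, 1108 and 2962 CPM in NdpWT) and Lyz2 (8350 and 9584 CPM in NdpKO, 6082 and 11574 CPM in NdpWT) overlapped.

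No gene of the transcription factor, trafficking, cytokine, interferon, iron, oxidative defence, glycolysis, MHC class I, lysosome, cell cycle or dissociation lists passed the test in either direction. Of these lists 17, 14, 9, 11, 12, 19, 11, 8, 14, 15 and 17 genes were tested, and their median log2 changes lay between -0.21 and 0.39. Il1b, which encodes the cytokine IL-1β, had 70.5 and 120 CPM in NdpKO and 436 and 149 CPM in NdpWT (log2 change -1.51, adjusted p = 0.805 by edgeR). Klf4, a transcription factor needed by monocytes, had 472 and 418 CPM in NdpKO and 417 and 494 CPM in NdpWT. B2m, the light chain of MHC class I, had 1561 and 743 CPM in NdpKO and 767 and 791 CPM in NdpWT. The other 14 lists, mostly markers of other cell types, had 0 to 6 genes tested each and 0 called. The cell cycle list had 12 of 15 genes higher with all members and 2 of 5 without the 27 barcodes.

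Hmox1, Slc48a1 and Slc40a1 handle haem and iron and were examined by name, since they had higher levels in border macrophages of both NdpKO libraries (adjusted p = 0.106 by edgeR for each). Hmox1, which breaks down haem, had 1169 and 923 CPM in NdpKO border macrophages and 311 and 464 CPM in NdpWT border macrophages. In monocytes it had 273 and 52.8 CPM in NdpKO and 47.4 and 69.0 CPM in NdpWT (log2 change 1.38 ± 1.02 SE, adjusted p = 1.00 by edgeR), and 1 cell held 83 of the 128 UMIs of NdpKO 1. Without NdpKO 1 the log2 change was -0.11, and without NdpKO 2 it was 2.17 (adjusted p = 0.00328 by edgeR).

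Slc48a1, a haem exporter of lysosomes, had 19.2 and 37.9 CPM in NdpKO monocytes and 28.4 and 47.8 CPM in NdpWT monocytes. The iron exporter gene Slc40a1 had 4.27 and 5.41 CPM in NdpKO and 171 and 0 CPM in NdpWT. The test of the difference between both cell types called none of the 3 genes (adjusted p = 1.00 for Hmox1, 0.633 for Slc48a1 and 1.00 for Slc40a1 by edgeR).

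The genotype change differed between monocytes and border macrophages in 44 of 12603 genes by an interaction test in edgeR, or 0.349%, with 40 changes higher (0.317%) and 4 lower (0.0317%) in monocytes. In border macrophages alone 3 genes rose (0.0221% of 13563) and 1 fell (0.00737%). C1qb had the largest difference of the genes seen in both groups, at a log2 difference of 5.77 ± 0.56 SE (adjusted p = 2.67e-16 by edgeR). In border macrophages C1qb had 2431 and 2902 CPM in NdpKO and 3105 and 2993 CPM in NdpWT. Apoe differed by 1.50 and C3ar1 by 3.61 on the log2 scale, and both passed. In border macrophages C3ar1 had 277 and 246 CPM in NdpKO and 258 and 265 CPM in NdpWT.

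In the opposite direction, Gngt2, a G protein gamma subunit high in patrolling monocytes, had 229 and 129 CPM in NdpKO monocytes and 284 and 409 CPM in NdpWT monocytes, while in border macrophages it had 3.82 and 5.50 CPM in NdpKO and 1.49 and 0.345 CPM in NdpWT. Gngt2 was thus lower in NdpKO monocytes, where it was not called for genotype, and higher in NdpKO border macrophages, where its levels were very low. The difference between the cell types holds both. Its log2 difference was -3.02 (adjusted p = 3.76e-07 by edgeR), -2.48 without NdpKO 2, -4.79 without NdpWT 1 and -2.07 without NdpWT 2, and in these 3 fits it did not pass. Without the 27 barcodes 12 differences were higher and 6 lower among 12147 genes (0.0988 and 0.0494%, 0.148% in all), and 6 of these were among the 44. C1qb, Apoe, C3ar1, Abca9, Gngt2 and Mgst1 were those 6. Plac8, a gene of the rule that chose the cells, was among the 6 lower differences and not among the 44. With all members, 39 genes were called without NdpKO 1, 10 without NdpKO 2, 3 without NdpWT 1 and 73 without NdpWT 2.

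Within the monocytes, classical genes were higher in the cells with more Ly6c2. Ly6c2 is itself a gene of the rule: all 74 members without it entered through Ccr2 and Plac8, as could 51 of the 58 members with it. In each library the 1 in 3 members with the most Ly6c2 per UMI (10 and 20 cells in NdpKO, 4 and 9 in NdpWT) were set against the members without a Ly6c2 UMI (19 and 37 in NdpKO, 8 and 10 in NdpWT), with library as a block. The former, called Ly6c2-high, had as few as 2 and 1 Ly6c2 UMIs in NdpKO and 1 and 1 in NdpWT. Members with any Ly6c2 UMI numbered 13 and 24 in NdpKO and 4 and 17 in NdpWT. The split is thus largely one of detection against none. Among 2441 genes 31 were higher (1.27%) and 70 lower (2.87%), 4.14% in all, in the Ly6c2-high cells by edgeR. All 25 classical genes tested were higher and 9 of them passed, with a median log2 difference of 0.99 against -0.03 over all genes. Of the 70 lower genes 68 had higher levels in fibroblasts than in monocytes, and of the 31 higher genes 1 had. That share was 41.9% over the 5207 genes of the genotype test and was not computed over the 2441 genes of the split. Among members with both Ccr2 and Plac8, chosen after seeing the data so that both sides met the rule by the same genes, 34 genes were higher (1.37%) and 70 lower (2.82%) among 2479 tested, 4.20% in all, and 96 of these were among the 101. All 24 classical genes tested there were higher and 10 passed, with a median of 1.08.

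Of the 27 barcodes described above, 3 and 13 in NdpKO and 2 and 0 in NdpWT were members without Ly6c2. Fibroblast genes chose part of these barcodes, so the loss of such genes without them was partly set by that step. The fibroblast list then had 0 genes tested. Without those barcodes 20 genes were higher (1.16%) and 17 lower (0.986%) among 1725 tested, 2.14% in all, and 18 of the calls were among the 101 of all members. Of the classical genes 10 of 25 then rose and 21 were higher, with a median of 0.83. Of the 12 patrolling genes tested 2 were lower past the test, Adgre4 and Fcgr4, and 2 of 12 were higher, with a median of -0.86. With all members 0 of 14 patrolling genes passed, with a median of -0.25.

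The Ly6c2-high cells were rich in secreted and surface genes of classical monocytes. Values here and in the next paragraph are for the 105 members without the 27 barcodes. There the Ly6c2-high sums held 114503 and 100008 UMIs in NdpKO and 19670 and 47319 in NdpWT. The sums without Ly6c2 held 155620 and 192199 UMIs in NdpKO and 29177 and 51487 in NdpWT, so low NdpWT levels rest on few UMIs. Stfa3, a cysteine protease inhibitor, had 742 and 160 CPM in Ly6c2-high NdpKO cells and 45.0 and 20.8 CPM in NdpKO cells without Ly6c2, and 661 and 676 CPM against 68.5 and 77.7 CPM in NdpWT cells (log2 difference 3.44 ± 0.33 SE, adjusted p = 4.17e-09 by edgeR). Hp had 760 and 420 CPM against 141 and 208 CPM in NdpKO, and 763 and 930 CPM against 206 and 252 CPM in NdpWT (1.73 ± 0.25, adjusted p = 2.01e-05 by edgeR). The matrix genes Fn1, Vcan and Thbs1, which encode fibronectin, versican and thrombospondin, were higher by 1.30, 2.07 and 1.23. In Stfa3, Hp, Fn1 and Thbs1 every library had the higher value in its Ly6c2-high cells.

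The cells without Ly6c2 had more of another set. Gngt2 had 105 and 120 CPM in Ly6c2-high NdpKO cells against 302 and 203 CPM in those without Ly6c2, and 50.8 and 275 CPM against 514 and 738 CPM in NdpWT (log2 difference -1.41 ± 0.29 SE, adjusted p = 0.00329 by edgeR). Adgre4, at -1.19, Cd9, a tetraspanin, at -2.66, and Fcgr4, a receptor for IgG, at -2.46 went the same way. Hmox1 had a log2 difference of -2.43, with 43.7 and 70.0 CPM in Ly6c2-high NdpKO cells against 700 and 67.6 CPM in those without Ly6c2, so that NdpKO 1, with its 1 cell of 83 UMIs, set it among the NdpKO libraries. C1qb had 0 and 10.0 CPM in Ly6c2-high NdpKO cells against 392 and 349 CPM in those without Ly6c2, and 0 CPM in both kinds of NdpWT cell (adjusted p = 5.92e-07 by edgeR). The NdpWT sums held only 19670 to 51487 UMIs each, so their 0 values are at the floor and the difference rests on NdpKO.

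**Figure D5:**
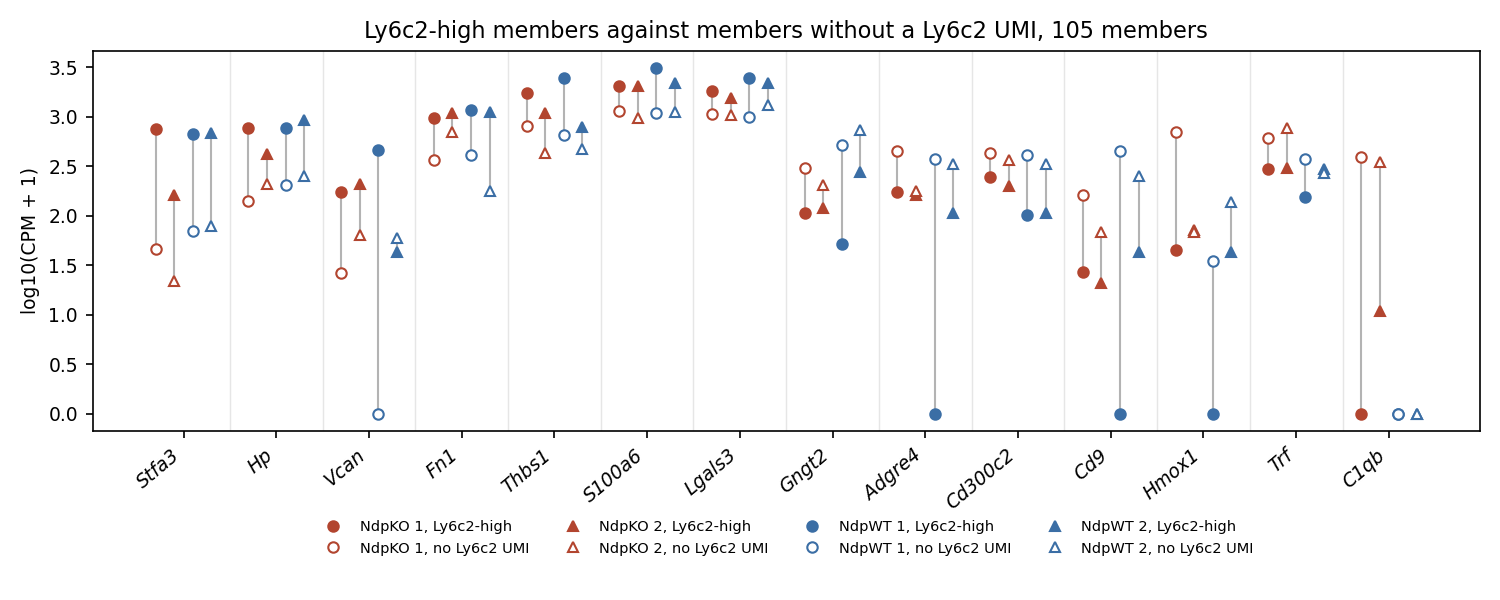
Level of 14 genes, chosen after their values were seen, in Ly6c2-high members (filled) and members without a Ly6c2 UMI (open) of each library, as log10(CPM + 1), for the 105 members without markers of other cell types; grey lines join the 2 values of a library. The first 7 genes are mostly higher in the Ly6c2-high cells, and the last 7 in the cells without Ly6c2, with C1qb at 0 in the small sums of both NdpWT libraries.

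With all members the named genes of this split were Stfa3, Slfn5, Ms4a4c, Hp, Mndal, Wfdc17, Mcemp1, Ms4a6c, Plaur and S100a6, with log2 differences of 1.39 to 3.37. Slfn5 lost its call without NdpKO 1, NdpKO 2 or NdpWT 2 in turn, Mcemp1 without NdpKO 1, NdpKO 2 or NdpWT 1, and Plaur without NdpKO 1 or NdpWT 1; their log2 differences then lay at 1.20 or above. The split gave 33 calls without NdpKO 1, 47 without NdpKO 2, 47 without NdpWT 1 and 127 without NdpWT 2. Stfa3, Ms4a4c and Mndal belong to families of close paralogs that can share reads.

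Patrolling genes and Ly6c2 were detected together in some cells. At least 2 of Ace, Treml4, Eno3 and Spn were detected in 17 and 13 NdpKO members (53.1 and 21.3%) and in 5 and 11 NdpWT members (41.7 and 40.7%). In fibroblasts, which were deeper, these shares were 3.42 and 1.27% in NdpKO and 1.43 and 0.713% in NdpWT, and a Ly6c2 UMI was found in at most 0.188%. Ace and Eno3 on their own were found in 7.01 to 16.6% of fibroblasts, so that a single UMI of either is not read as expression. Of these 46 members 16 also had a Ly6c2 UMI. A further 10 and 27 NdpKO members and 4 and 3 NdpWT members had neither. These counts use genes chosen after their values were seen, depend on depth, and are given without a test.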

How the data were processed

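UMI counts per gene and barcode, deposited by the authors as 1 sparse matrix per library, were made with Cell Ranger 6.1.2 on mm10, per the submitters' processing notes. Libraries used 10x 3′ chemistry; no source used here says whether free RNA or doublets were removed. Counts were summed per library over the members, and columns of other series numbered 0. Tests used edgeR 4.0.16 in R 4.3.3 (robust quasi-likelihood, TMM, filterByExpr with a minimum count of 10, Benjamini-Hochberg over all genes, threshold 0.05); DESeq2 1.42.0, other scalings, filters and left-out libraries were alternatives. CPM use plain totals of 105565 to 739014 UMIs. Shares were compared by an exact permutation test (scipy 1.17.1). The tests were checked on simulated counts.

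Members and gene lists were chosen with earlier results of these data known. Named genes were those past the threshold with a mean of at least 20 CPM, by largest change (at most 15 each way for genotype, 10 for the other tests), the first 4 by level of each of 30 lists and the rule's genes; others named were chosen after their values were seen. Border macrophages had at least 10 UMIs of Mrc1 and Pf4 and C1qa detected. Positions are from GENCODE M21 (GRCm38, the assembly of mm10). Scrublet (scanpy 1.11.5) marked 3 of 5696 barcodes in NdpKO 1 and did not work there, so doublets were kept, and removal of its calls and of the highest scores were alternatives. Each library is a pool of animals, and p-values of the genotype fit measure the spread between these 2 pools per genotype. In the Ly6c2 split and the interaction test they measure how differences within a library vary between libraries. In all 3 fits edgeR also draws on the spread of other genes. Replicates differed by more than counting noise (chi-square over degrees of freedom 6.33 in NdpKO and 5.21 in NdpWT). Paralogs and overlapping or antisense genes may share reads. Aldoa named 2 features and was left out. Of the 14 genes called for genotype, 1 is not reported here by name.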

Additional observations from a re-analysis of the deposited data

Results flagged for a closer look

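The genotype change differed between monocytes and border macrophages, by the interaction test in edgeR, for each of 14 named genes. C1qb (log2 difference 5.77), Hist1h3c (4.70), Foxd1 (4.65), Crabp2 (4.02) and Abca9 (3.99) had the higher change in monocytes. Lyz1 (11.86), Pmp22 (11.28), Serping1 (10.91), Nid2 (10.79) and Aldh7a1 (10.00) had 0 UMIs in both NdpWT sums, so these fitted values are no measure of size; against 3 UMIs over the group they were at least 8.68, 5.44, 7.79, 5.36 and 3.17-fold higher in NdpKO monocytes. Of all 44 genes called, 34 had higher levels in fibroblasts than in monocytes, among them Foxd1, Crabp2, Abca9, Pmp22, Serping1, Nid2 and Aldh7a1, with 87.2 to 477 CPM in fibroblasts. Over the 5207 genes of the genotype test that share was 41.9%, and it was not computed over the 12603 genes of the interaction test. Without the 27 barcodes with markers of other cell types, C1qb, Abca9, Gngt2 and Mgst1 kept the call and the other 10 lost it; Crabp2 was then at 0.64 (adjusted p = 1.00 by edgeR), Hist1h3c at -0.073 and Foxd1 at -0.15. Lyz1 is a close paralog of Lyz2 and may share its reads. Gngt2 (-3.02), Il1b (-1.82), Mgst1 (-1.63) and Neurod1 (-1.48) had the lower change in monocytes. Aldh7a1, Crabp2, Il1b and Mgst1 lost the call when any 1 library was left out, and C1qb kept it without each library.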

How the results depend on the processing

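The higher share of monocytes in NdpKO kept its direction in every alternative tried, with log2 differences of 1.41 to 2.14. The 14 genotype calls were 14 with RLE size factors and 10 with DESeq2, but 81 with no filter on low counts, 6 without Scrublet's calls, 4 without the highest Scrublet scores, 0 with at least 3 of the 4 rule genes, and 1 each at 5% mitochondrial UMIs, without fibroblast or neuron markers and without all markers of other cell types. Leaving out 1 library gave 43 to 94. With 3 of 4 genes, 64 genes had an unadjusted p under 0.05. Listed genes were called 5 times in the main test, 13 with no filter, 0 with 3 of 4 genes, 1 at 5% mitochondrial UMIs, 1 and 1 without the marker barcodes, 2 without the highest scores, and 10 to 18 without 1 library. The 44 interaction calls were 18 without the marker barcodes and 3 to 73 without 1 library. The 101 calls of the Ly6c2 split were 15 when members were cut at the median, 277 with no filter, 37 without the marker barcodes and 33 to 127 without 1 library. Without fibroblast or neuron markers and without all markers, the log2 change turned to -0.39 and -0.48 for Dcn and -0.68 and -0.59 for Mgp; without all markers it was -0.10 for Igf2, and the interaction was -0.073 for Hist1h3c and -0.15 for Foxd1. Apart from the dropped barcodes and libraries, the cause of these shifts was not tested.

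With the replicate number as a block, 0 genes and 0 listed genes were called for genotype by edgeR (197 genes at an unadjusted p under 0.05), and C1qb had an adjusted p of 0.0844. The protocol describes runs of the 2 genotypes matched by litter, but no label ties replicate numbers to that matching, and same-numbered libraries did not deviate together (correlation -0.062 over 5207 genes).

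Depth limits these results: NdpWT members held 105565 and 188357 UMIs, where 3 UMIs are 28.4 and 15.9 CPM. With 2 libraries per genotype, counts of calls moved with single libraries, as given above. The barcodes with other markers were defined after seeing the data, as were removal of the highest Scrublet scores, reduction to 4000 UMIs and the border macrophage denominator.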
